A study of Mus musculus with 8 samples.

Results

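Krüppel-like factors (KLFs) are zinc-finger transcription factors, and Klf4, the member forced into the cells here, is 1 of them. Described here are 10 other KLF genes of the mouse: Klf2, Klf3, Klf5, Klf6, Klf7, Klf9, Klf10, Klf11, Klf12 and Klf13. They were chosen by symbol from the 55536 genes counted, and each matched 1 row. The RNA was labelled as that of Min6, a line of insulin-making β cells grown from an insulinoma of a transgenic mouse, with a genotype given as WT, although the extraction text speaks of islets. The control plasmid was pcDNA 3 without insert and the other was pGloMyc-Klf4, each given with Lipofectamine 3000 for 48 h. There were 4 replicates per group, numbers 1 and 2 from batch 1 and numbers 3 and 4 from batch 2. The plasmids differ in name by more than the insert, so the backbone and Klf4 cannot be told apart, and the cells share the line, so the spread between libraries is that of cultures of 1 line.

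KLF proteins share a block of C-terminal zinc fingers that binds GC-rich DNA and the CACCC box, while the rest of the protein differs between members. By that remaining part they are commonly grouped into members that bind the CtBP corepressor (Klf3, Klf8, Klf12), members that mostly activate through acetyltransferases (Klf1, Klf2, Klf4, Klf5, Klf6, Klf7) and members that bind the Sin3 corepressor (Klf9, Klf10, Klf11, Klf13, Klf14, Klf16). Because their target sites are alike, several KLF genes are known to be regulated by other KLFs; in red blood cell precursors, for example, Klf1 activates Klf3. In the pancreas, Klf11 is known as a regulator of the insulin gene, and variants of human KLF11 have been linked to a monogenic form of diabetes.

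Start sites are shown for 3 of the genes, the one with the largest rise (Klf3), another that rose (Klf13) and the one that fell (Klf7), so that the CACCC boxes at them can be seen. The sequences are those of RefSeq on GRCm38.p6 (mm10), from 250 bases before to 50 bases after the annotated start, written 5′ to 3′ on the strand of the gene. Capitals mark CACCC and its reverse complement GGGTG.
Klf3, chr5:64803271-64803570, plus strand: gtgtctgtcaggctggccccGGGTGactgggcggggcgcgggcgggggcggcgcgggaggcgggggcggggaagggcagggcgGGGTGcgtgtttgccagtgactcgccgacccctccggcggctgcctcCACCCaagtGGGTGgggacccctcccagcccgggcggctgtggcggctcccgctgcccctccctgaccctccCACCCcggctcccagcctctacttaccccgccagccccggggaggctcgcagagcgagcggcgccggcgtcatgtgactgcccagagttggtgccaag
Klf13, chr7:63938866-63939165, minus strand: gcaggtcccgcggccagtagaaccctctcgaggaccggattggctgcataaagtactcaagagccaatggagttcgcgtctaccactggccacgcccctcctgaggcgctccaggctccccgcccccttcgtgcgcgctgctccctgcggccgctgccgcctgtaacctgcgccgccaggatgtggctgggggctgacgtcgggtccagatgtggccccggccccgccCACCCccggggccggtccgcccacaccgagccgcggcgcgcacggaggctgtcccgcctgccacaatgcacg
Klf7, chr1:64121340-64121639, minus strand: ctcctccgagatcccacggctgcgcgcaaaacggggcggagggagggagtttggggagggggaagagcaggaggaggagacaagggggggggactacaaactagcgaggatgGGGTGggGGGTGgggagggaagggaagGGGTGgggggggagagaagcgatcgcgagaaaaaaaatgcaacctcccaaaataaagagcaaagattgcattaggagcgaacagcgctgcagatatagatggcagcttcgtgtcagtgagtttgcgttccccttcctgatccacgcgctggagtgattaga

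The Klf3 window held 5 matches to CACCC on either strand, the Klf7 window 3 and the Klf13 window 1. Of all 32851 such windows, 57.5% held at least 1 match, 9.35% at least 3 and 1.02% at least 5. A window was found for 8 of the 10 genes, and 6 of these 8 (75%) held CACCC, with none in Klf6 and Klf11. The GC box GGGCGG, searched on both strands (reverse complement CCGCCC), was in 6 of the 8 windows, against 35.7% of all windows. The member windows had a GC content of 45.7% to 77.7%, and the median over all windows was 52.7%. The lowest value was that of Klf12. Its window (chromosome 14, 100149747 to 100150046) lies inside the gene, far from the outermost start at 100284679. The longer motif GGGTGTGG (reverse complement CCACACCC), which can overlap CACCC, was in the Klf12 window only among these 8 and in 3.56% of all windows. Another longer motif, CCCCACCC (reverse complement GGGTGGGG), was in 2 of the 8 windows, those of Klf3 and Klf7, and in 9.99% of all windows. A window rich in CACCC belonged both to the gene that rose most and to the gene that fell. Whether CACCC has a part in either change was not tested. Klf5 and Klf10 had no entry.

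Forced Klf4 came with higher RNA of 8 of the 10 other KLF genes and lower RNA of 1, Klf7. The rises were largest for Klf3, a repressor, at 3.64-fold, and for Klf10, a gene known for its early induction by TGF-β, at 2.19-fold; they were 1.52-fold for Klf13 and lay between 1.10-fold and 1.36-fold for Klf2, Klf6, Klf9, Klf11 and Klf12. Klf5 did not pass the threshold. Calls are those of edgeR's quasi-likelihood test with a term for batch, at a Benjamini-Hochberg adjusted p under 0.05 over all 18266 tested genes. By the same rule 36.6% of all tested genes changed, 21.1% higher and 15.5% lower. All 10 genes passed the filter on low counts, and in control libraries alone the lowest count of any of them was 38. Klf3 and Klf10 passed a log2 fold change of 1, as did 8.50% of all tested genes. The median log2 fold change of the 10 was 0.39, against -0.01 over all tested genes.

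**Figure D1:**
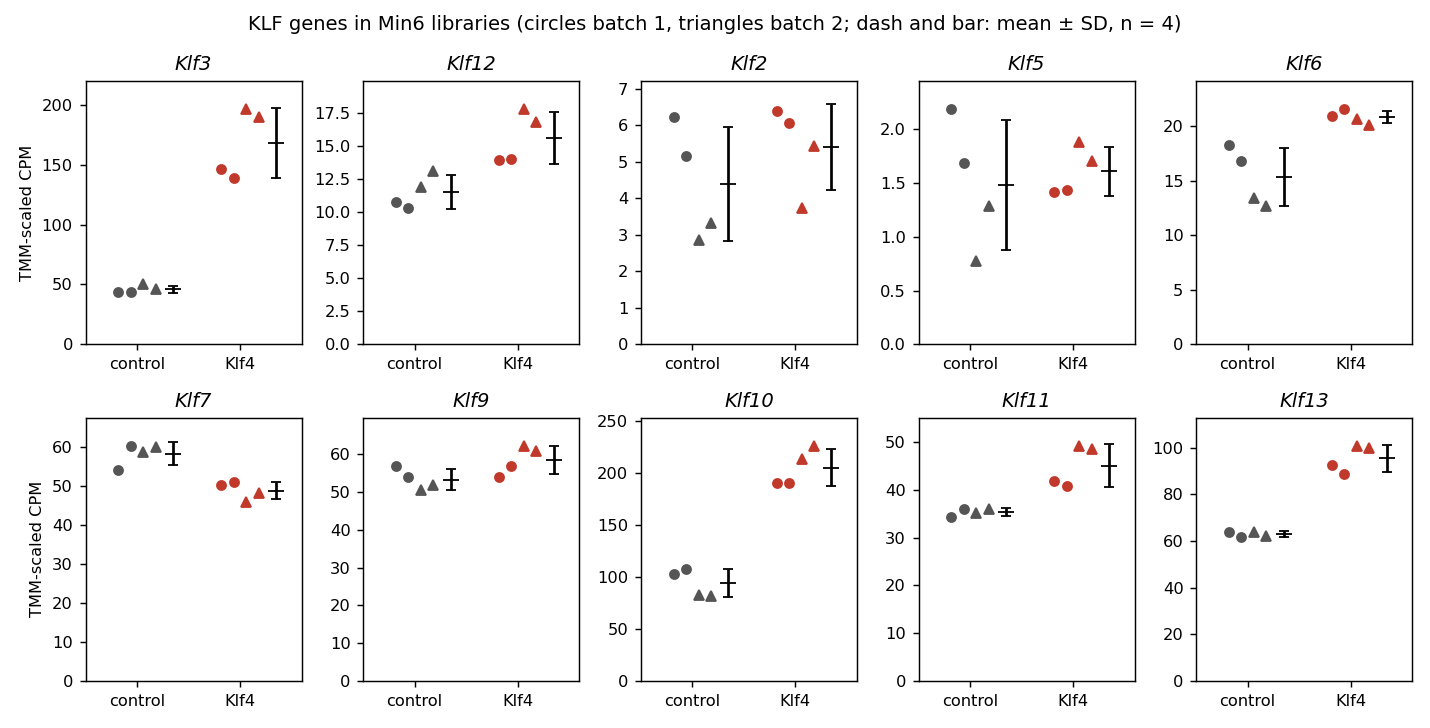
Expression of the 10 KLF genes in TMM-scaled counts (CPM, scaled to library size; vertical axis from 0) in control and Klf4-plasmid libraries; circles are batch 1, triangles are batch 2, and the dash and bar give the mean ± SD of 4 libraries. The groups stand apart for 7 of the 10 genes and overlap for Klf2, Klf5 and Klf9.

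**Figure D2:**
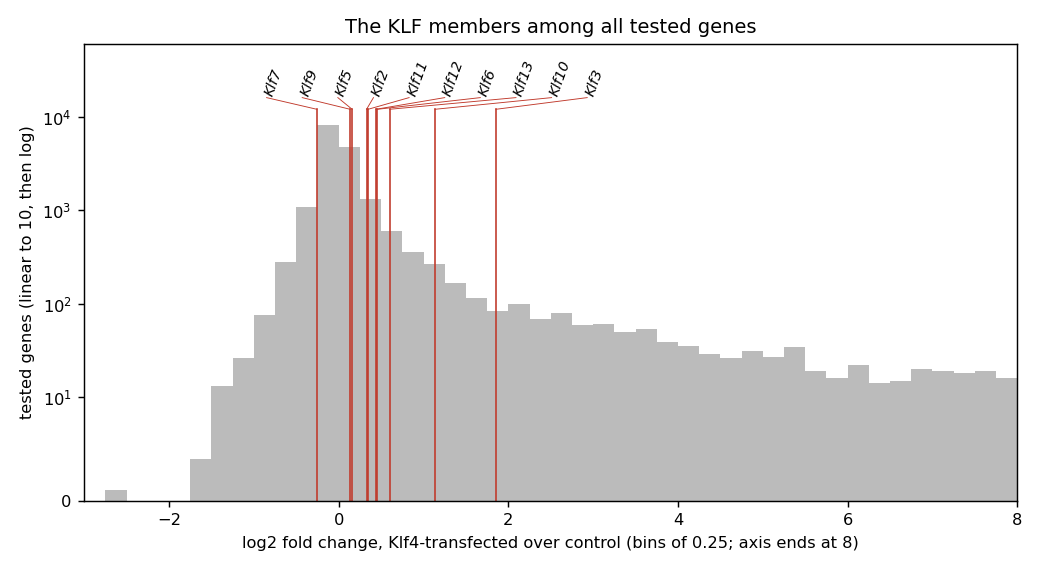
Histogram of the log2 fold change (Klf4-plasmid over control) of the tested genes in bins of 0.25, with a vertical axis that is linear to 10 and logarithmic above and a horizontal axis that ends at 8. The red lines mark the 10 KLF genes; 94.6% of all tested genes lay below Klf3, 92.2% below Klf10 and 7.66% below Klf7.

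The transfected gene itself had 1743 to 2060 counts in control and 205171 to 308667 in Klf4-plasmid libraries, a log2 fold change of 6.97. Total counts were 45417853 to 52731176 per library. Per length, Klf4 made 13.3% ± 0.471 of the summed RPKM (counts scaled to exonic length and library size) of the 17 KLF genes in control and 92% ± 0.475 in Klf4-plasmid libraries (SD, n = 4). No transcript of another KLF gene shared more than 17 bases in a row with a Klf4 transcript of the annotation (the longest stretch, with Klf12; 14 for Klf3 and 15 for Klf10). Of 7 β-cell marker genes, all were tested, none was higher and 3 were lower, where 21.1% and 15.5% of all tested genes were. The log2 fold changes of the 7 ran from -0.22 to -0.02. Their summed level was 24054 to 30701 CPM in control and 22582 to 31049 CPM in Klf4-plasmid libraries. Of 21 markers of α, δ, PP, acinar, ductal, endothelial, fibroblast and leukocyte cells, 11 were tested and 7 were higher, where 21.1% of all tested genes were. Some of the 11 passed the filter on low counts only through the Klf4-plasmid libraries, as did Cdh5, with 0 counts in every control library. Without the abundant Gcg and Krt7, the other 19 summed to 14.4 to 16.0 CPM in control and 22.3 to 24.6 CPM in Klf4-plasmid libraries, and Prss2 was at 0 counts in every library; their part in the KLF results was not tested. Fewer cells of a type and less RNA per cell cannot be told apart in such libraries.

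Among the CtBP-binding genes, both members rose, where 21.1% of all tested genes did. Klf3 (ENSMUSG00000029178, chromosome 5, 64803388 to 64832901, plus strand) recruits CtBP to CACCC boxes and competes there with activating KLFs. It stood at 43.9, 44.1, 50.2 and 46.5 CPM in control replicates 1 to 4 and at 147, 139.4, 196.6 and 189.7 CPM in the Klf4-plasmid replicates 1 to 4. Every Klf4-plasmid library was above every control library, and those of batch 2 were the highest. The means were 46.1 ± 2.93 and 168.2 ± 29.1 CPM (SD, n = 4), and the log2 fold change was 1.85 (edgeR adjusted p = 7.8e-19, SE 0.05). Over 404 exonic bases Klf3 overlaps Gm20033 on the opposite strand, and whether reads were counted by strand is not given in the sources used here; Gm20033 was at 0.744 ± 0.096 CPM in control and 1.87 ± 0.45 CPM in Klf4-plasmid libraries (SD, n = 4), far under the level of Klf3.

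Klf12 (ENSMUSG00000072294, chromosome 14, 99870632 to 100284679, minus strand), first described as a repressor of the AP-2α gene, was at 10.8, 10.3, 11.9 and 13.2 CPM in control and 14.0, 14.0, 17.8 and 16.8 CPM in Klf4-plasmid libraries. The groups did not overlap, although the highest control library and the lowest Klf4-plasmid library were close. Its log2 fold change was 0.44 (edgeR adjusted p = 2.98e-06, SE 0.06). The pattern of Klf3 over the 8 libraries was most like that of Ndrg4, Fah and Sema3f among the 12870 genes whose log2 CPM averaged 1 or more (Pearson r of log2 CPM 0.999, 0.998 and 0.998). These points share 2 groups of 4 libraries, and 172 genes had an r of at least 0.99.

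In the activating group, 2 of 4 members rose and 1 fell, where 21.1% and 15.5% of all tested genes did. Of the 2 rises, that of Klf2 depended on single libraries. Klf6 (ENSMUSG00000000078, chromosome 13, 5861482 to 5870394, plus strand) is an early-response gene of tissue injury. It was at 18.3, 16.9, 13.4 and 12.7 CPM in control and 21.0, 21.6, 20.7 and 20.2 CPM in Klf4-plasmid libraries. The Klf4-plasmid libraries lay within a narrow range above all controls, and the controls of batch 2 were lower than those of batch 1. The log2 fold change was 0.45 (edgeR adjusted p = 6.99e-06, SE 0.07).

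Klf7 (ENSMUSG00000025959, chromosome 1, 64029447 to 64122282, minus strand), best known from neurons, was the only member that fell. It was at 54.2, 60.3, 58.8 and 60.2 CPM in control and 50.2, 51.1, 46.0 and 48.2 CPM in Klf4-plasmid libraries, with no overlap between the groups. The means were 58.4 ± 2.88 and 48.9 ± 2.24 CPM (SD, n = 4), a log2 fold change of -0.26 (edgeR adjusted p = 3.43e-05, SE 0.04). Klf7 overlaps Gm26649 on the opposite strand over 3196 exonic bases, and Gm26649 was at 0.18 ± 0.0721 CPM in control and 0.279 ± 0.0545 CPM in Klf4-plasmid libraries (SD, n = 4).

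Klf2 (ENSMUSG00000055148, chromosome 8, 72319033 to 72321656, plus strand) is the flow-responsive factor of endothelium and a factor of T-cell quiescence, and it was low in Min6. It was at 6.22, 5.16, 2.86 and 3.34 CPM in control and 6.39, 6.05, 3.75 and 5.42 CPM in Klf4-plasmid libraries. The groups overlapped, and libraries differed more between the batches than between the plasmids. Within each batch the mean of the Klf4-plasmid libraries was the higher one, and the log2 fold change was 0.33 (edgeR adjusted p = 0.0394, SE 0.12). This call was lost in 5 of the 8 fits made without 1 library: without control replicates 2 (adjusted p = 0.0715), 3 (0.172) or 4 (0.072), and without Klf4-plasmid replicates 1 (0.0655) or 4 (0.247). The log2 fold change was 0.18 in the last of these fits. It was lost with limma-voom (adjusted p = 0.0633) and with no batch term (0.433) as well.

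Klf5 (ENSMUSG00000005148, chromosome 14, 99298691 to 99315036, plus strand) is known for proliferation of epithelia and, with Klf2 and Klf4, for self-renewal of embryonic stem cells. It was the least abundant of the 10, with 38 to 103 counts in control and 65 to 99 in Klf4-plasmid libraries. In CPM it stood at 2.19, 1.68, 0.771 and 1.28 in control and 1.41, 1.44, 1.88 and 1.71 in Klf4-plasmid libraries. In batch 1 both Klf4-plasmid libraries were below both controls, and in batch 2 both were above them. Over all libraries the log2 fold change was 0.16 (edgeR adjusted p = 0.638, SE 0.23).

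All 4 members of the Sin3-binding group were called higher, where 21.1% of all tested genes were, but the call for Klf9 depended on single libraries. Klf10 (ENSMUSG00000037465, chromosome 15, 38291463 to 38300706, minus strand) was at 102.5, 107.9, 82.8 and 81.6 CPM in control and 190.2, 190.7, 213 and 225.8 CPM in Klf4-plasmid libraries. The controls of batch 2 were the lowest of all libraries and the Klf4-plasmid libraries of batch 2 the highest. The means were 93.7 ± 13.5 and 204.9 ± 17.5 CPM (SD, n = 4), and the log2 fold change was 1.13 (edgeR adjusted p = 4.49e-12, SE 0.07).

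Klf13 (ENSMUSG00000052040, chromosome 7, 63886351 to 63938915, minus strand), known from the late induction of Ccl5 in T cells, was at 64.0, 61.7, 63.9 and 62.4 CPM in control and 92.7, 88.7, 100.8 and 99.9 CPM in Klf4-plasmid libraries. The gap between the groups exceeded the range within either of them. The log2 fold change was 0.60 (edgeR adjusted p = 2.41e-12, SE 0.03). Klf11 (ENSMUSG00000020653, chromosome 12, 24651274 to 24662789, plus strand) was at 34.4 to 36.0 CPM in control libraries. Its Klf4-plasmid libraries were at 41.8, 40.8, 49.2 and 48.6 CPM, all above the controls, with a log2 fold change of 0.35 (edgeR adjusted p = 1.71e-06, SE 0.05).

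Klf9 (ENSMUSG00000033863, chromosome 19, 23141226 to 23168134, plus strand), a gene induced by glucocorticoid and thyroid hormone, had the smallest called change. It was at 56.9, 54.0, 50.4 and 51.8 CPM in control and 53.9, 57.0, 62.2 and 60.9 CPM in Klf4-plasmid libraries. The groups overlapped in batch 1 and were apart in batch 2. The log2 fold change was 0.14 (edgeR adjusted p = 0.0244, SE 0.05). The call was lost without control replicates 3 (log2 fold change 0.09, adjusted p = 0.183) or 4 (0.105), without Klf4-plasmid replicates 3 (0.132) or 4 (0.107), and with no batch term (0.108). The libraries of the groups did not overlap for 6 genes that were higher and 1 that was lower, where 17.2% and 8.93% of all tested genes, 26.1% in either direction, did so.

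The change had the same direction in both batches for 8 of the 10 genes, all but Klf5 and Klf9. The effects within batches came from 1 model of all 8 libraries, with the dispersion shared between the batches. In batch 1, 7 of the 10 genes changed (6 higher), against 23.5% of all tested genes. In batch 2 all 10 changed (9 higher), against 32.0%. The log2 fold change was larger in size in batch 2 for all 10, which was so for 60% of all tested genes. It was 1.70 in batch 1 and 2.00 in batch 2 for Klf3, and 0.86 and 1.42 for Klf10. These differences between batches passed the edgeR interaction test (adjusted p = 0.0186 for Klf3 and 1.08e-06 for Klf10), a test that 0.766% of all genes passed. The DESeq2 Wald test of the interaction gave 0.00743 and 5.21e-15.

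The other 8 genes did not pass the interaction test. Klf5 had the widest gap, with -0.44 in batch 1 (edgeR adjusted p = 0.226) and 0.80 in batch 2 (0.0165), and an interaction p of 0.00163 that was 0.11 after adjustment. Klf9 was at 0.00 and 0.27 (interaction adjusted p = 0.0664 in edgeR), Klf6 at 0.28 and 0.64 (0.11), Klf2 at 0.13 and 0.57 (0.483) and Klf12 at 0.41 and 0.47 (0.931). Klf4 RNA moved with the batches in the same direction, at 6.79 in batch 1 and 7.16 in batch 2 (edgeR interaction adjusted p = 0.0057), but this was not called by the DESeq2 Wald test (adjusted p = 0.313). The Klf4-plasmid libraries held 4873 and 4532 CPM of Klf4 (batch 1) and 4903 and 5853 CPM (batch 2). The part of the Klf4 level in the batch difference of the other genes was not tested.

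**Figure D3:**
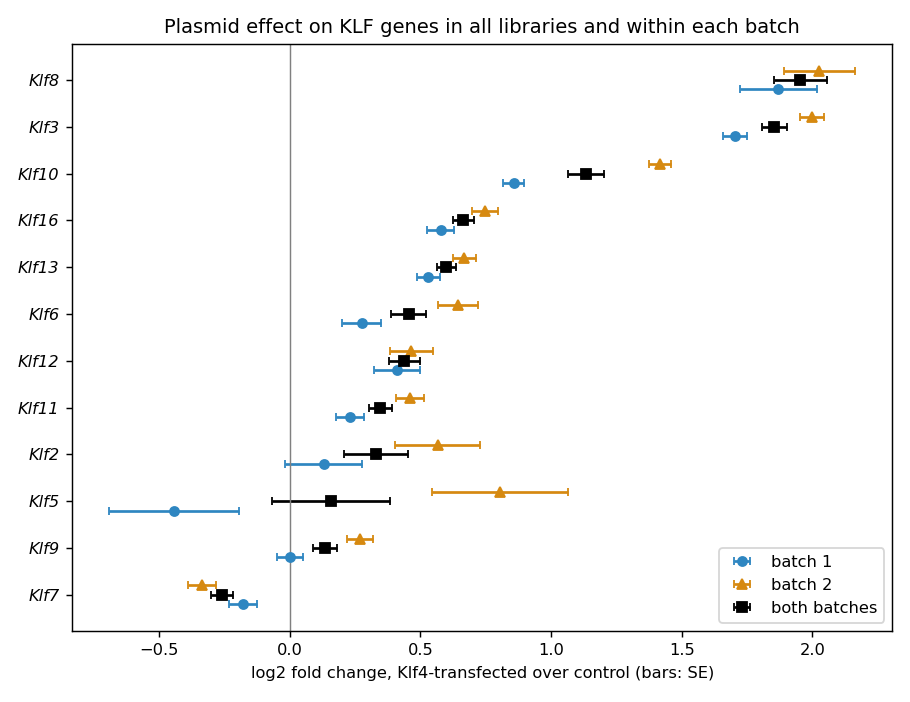
Log2 fold change (Klf4-plasmid over control, bars SE) of the 10 KLF genes and of Klf8 and Klf16, fitted in all 8 libraries. Black squares give the effect over both batches. Blue circles (batch 1) and orange triangles (batch 2) give the effects of a model with 1 plasmid effect per batch. The batch 2 values lie farther from 0 for all 10 genes, with the widest gaps for Klf5 (-0.44 and 0.80) and Klf10 (0.86 and 1.42).

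Compared per length, Klf10 was the most abundant KLF transcript of control cells, at 22.4 ± 3.22 RPKM (SD, n = 4). It was followed by Klf16 at 16.2, Klf4 at 13.1 and Klf9 at 11.1 RPKM, each apart from its neighbours in all libraries. Klf13 (8.36 RPKM) and Klf11 (8.15 RPKM) overlapped, and Klf7 was below them at 7.18 RPKM. Klf3, Klf6, Klf2 and Klf12 followed at 4.10, 3.49, 2.38 and 1.65 RPKM. Klf3, Klf6 and Klf2 each overlapped the next gene, while Klf12 was apart from Klf8 below it. Klf5, at 0.285 RPKM, overlapped both Klf8 and Klf1.

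In Klf4-plasmid cells the order below Klf4 (1653 RPKM) began again with Klf10 (49.0 ± 4.2 RPKM; SD, n = 4) and Klf16 (25.7 RPKM). Klf3 moved from the 8th to the 4th place of the 17 genes at 15.0 ± 2.59 RPKM (SD, n = 4), a range that overlapped that of Klf13 (12.7 RPKM). The summed level of the 10 genes was 69.1 ± 4.58 RPKM in control and 115.4 ± 8.58 RPKM in Klf4-plasmid libraries (SD, n = 4), and Klf3 and Klf10 made 80.8% of that difference. Even so, the level of Klf4 in transfected cells exceeded the sum of the 10 in every library.

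**Figure D4:**
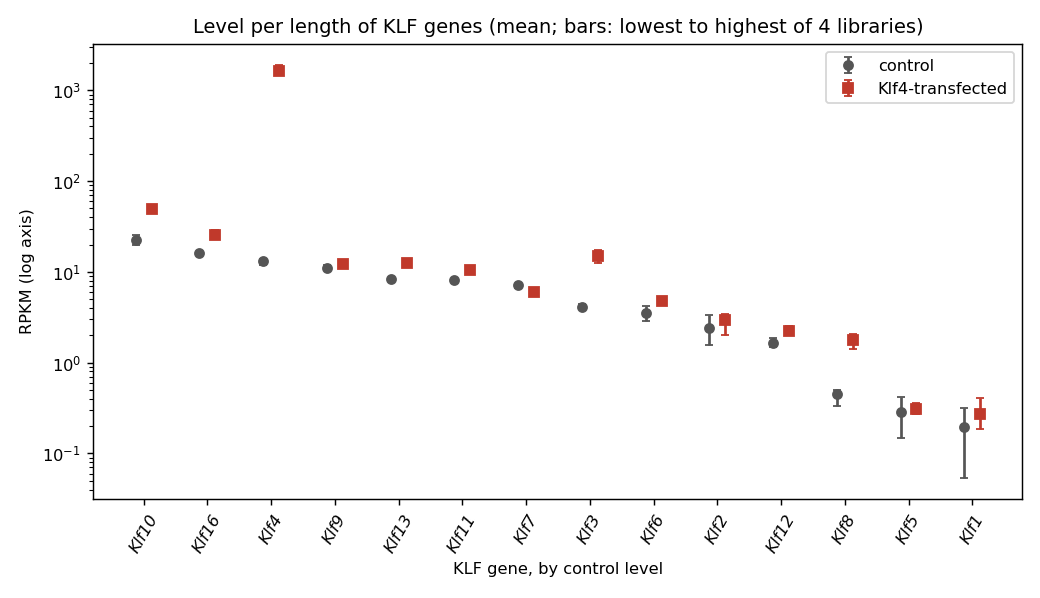
RPKM (log axis) of 14 KLF genes in control (grey circles) and Klf4-plasmid libraries (red squares), as the mean with bars from the lowest to the highest of 4 libraries, in the order of the control level; Klf14, Klf15 and Klf17 are left out because they were at or near 0. Klf4 rises from 13.1 to 1653 RPKM, and on the log axis, as a ratio, Klf3 and Klf8 leave their control range by the widest margin among the others.

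The 6 remaining KLF genes were read in the same fit. Klf8, a CtBP-binding repressor like Klf3, rose from 2.35 ± 0.423 to 9.15 ± 1.7 CPM (SD, n = 4), a log2 difference of 1.95 (edgeR adjusted p = 3.82e-13, SE 0.10). Klf16, of the Sin3-binding group, rose from 43.3 ± 1.29 to 68.7 ± 7.13 CPM (SD, n = 4), a log2 difference of 0.66 (edgeR adjusted p = 5.56e-12, SE 0.04). The erythroid factor Klf1 had 4 to 23 counts in control libraries and a log2 fold change of 0.51 (edgeR adjusted p = 0.336, SE 0.39). The others were not tested for low counts: Klf14 had 3 counts in 1 control library and none elsewhere, Klf15 had 0 to 2 counts in control and 1 to 6 in Klf4-plasmid libraries, and Klf17 had 0 in control and 1 to 3 in Klf4-plasmid libraries.

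Of the 9 SP genes, which bind GC boxes with closely related zinc fingers, 8 were tested, 3 were higher and 1 was lower, beside 36.6% changed of all tested genes. Sp5 had no counts in any control library, while the Klf4-plasmid libraries had 31, 22, 51 and 54 (edgeR adjusted p = 1.77e-08). With control set at a floor of 3 counts per library, the mean of the Klf4-plasmid libraries was 12.4-fold higher. Sp5 passed the filter on low counts only through these libraries, so its call adds nothing to the count of higher SP genes. Sp6 rose from 4.26 ± 0.215 to 6.86 ± 0.392 CPM (SD, n = 4), a log2 difference of 0.69 (edgeR adjusted p = 1.29e-06) and Sp4 had a log2 fold change of 0.23 (edgeR adjusted p = 0.000227). Sp8 fell by 0.14 on the log2 scale (edgeR adjusted p = 0.012), a call lost without control replicate 4 (0.0604) or Klf4-plasmid replicate 4 (0.0539) with scaling by abundant genes (0.0604) and with no batch term (0.287). The ubiquitous Sp1 and Sp3 did not pass the threshold (log2 fold change -0.08 and 0.02, edgeR adjusted p = 0.0927 and 0.71). The median of the list was 0.14, also with Sp5 set at its bound.

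Genes of KLF partner proteins and of KLF turnover were read at the level of RNA, where 36.6% of all tested genes changed. Of 9 corepressor genes 1 was higher (Sin3b, log2 fold change 0.14, edgeR adjusted p = 0.00106) and 3 were lower, with a median of -0.00. The lower ones were Sap30 (-0.18, edgeR adjusted p = 0.0107), Hdac2 (-0.12, 0.00187) and Ctbp1 (-0.08, 0.0294), the last lost without control replicate 1 (0.0623) or Klf4-plasmid replicate 4 (0.0576). With no batch term the calls for Hdac2 (0.0981) and Ctbp1 (0.12) were lost, and that for Ctbp1 also with scaling by abundant genes (-0.04, 0.245) and with a filter of at least 1 CPM in 4 libraries (0.0543). Of 4 acetyltransferase genes, Crebbp fell by 0.19 (edgeR adjusted p = 0.000116) and Ep300 by 0.13 (0.0123), and Kat2a and Kat2b were not called. The call for Ep300 was lost without Klf4-plasmid replicate 1 (adjusted p = 0.0656), with no batch term (0.108) and with scaling by abundant genes (0.0821). Of 7 genes for turnover of KLF proteins, the ubiquitin ligase gene Smurf1 (log2 fold change 0.22, edgeR adjusted p = 0.000218) and Vhl (0.13, 0.0324) were higher and Fbxo32 (-0.21, 0.00328) and Btrc (-0.15, 0.000659) lower. The call for Vhl was lost in 6 of the 8 fits that left out a library, with an adjusted p of up to 0.201 (log2 fold change 0.09 without control replicate 3), with no batch term (0.152), with the DESeq2 Wald test (0.0535) and with no filter on low counts (0.0652). That for Fbxo32 was lost with no batch term (0.265).

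Of 14 genes upstream of KLF genes, 3 were higher and 1 was lower, where 21.1% and 15.5% of all tested genes were. Tgfb1, the ligand of the pathway known to induce Klf10 and Klf11, rose from 34.3 ± 8.57 to 73.6 ± 17.6 CPM (SD, n = 4), a log2 difference of 1.10 (edgeR adjusted p = 2.53e-15, SE 0.04). Its log2 fold change was 1.11 in batch 1 and 1.10 in batch 2. Smad2, a signal transducer of that pathway, fell by 0.16 on the log2 scale (edgeR adjusted p = 0.00153), and Smad3 and Smad4 were not called (0.154 and 0.746). Mef2a, of a family known to activate Klf2 and Klf4, rose from 65.4 ± 3.07 to 95.6 ± 8.62 CPM (SD, n = 4), a log2 difference of 0.54 (edgeR adjusted p = 1.52e-09), while Mef2c and Mef2d did not pass the threshold (0.546 and 0.836). The thyroid hormone receptor gene Thrb had a log2 fold change of 0.32 (edgeR adjusted p = 0.0448), a call lost in 5 of the 8 fits that left out a library, with an adjusted p of up to 0.198, with no batch term (0.0963), with the replicate block (0.0589), with the DESeq2 Wald test (0.0752) and with no filter on low counts (0.0553). The early-response regulators Egr1 and Srf did not pass the threshold (edgeR adjusted p = 0.617 and 0.0896). The part of these upstream genes in the changes of the KLF genes was not tested.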

How the data were processed

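The authors deposited unnormalised whole-number read counts per gene with a column for each library. Per the submitters' processing notes FastQC, STAR, featureCounts and edgeR were used with the mm10 build, and the name of the deposited counts mentions cutadapt trimming; versions, strand setting and annotation are not given in the sources used here. All 55536 identifiers and symbols were those of GENCODE M21, which gave positions and exonic lengths.

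Counts were analysed in edgeR 4.0.16 (R 4.3.3) with filterByExpr (minimum count 10; 18266 genes kept), TMM factors of 0.996 to 1.01, and glmQLFit and glmQLFTest with terms for batch and plasmid, after the series' own design text. The plasmid effect within batches and its interaction with batch came from the same counts, in models of all libraries with the dispersion shared between batches. The test was run on simulated counts with no batch effect and the same dispersion for all genes, unlike the real libraries, so this does not check it for them. CPM and RPKM were computed here. Named were all KLF genes and, of the other lists, the called genes (at most 4 per list with the largest change) and some uncalled ones chosen after their values were seen. The members and lists were chosen with earlier results of these data known. Alternatives were other terms, scalings (also DESeq2 1.42.0 size factors), tests (DESeq2, limma-voom of limma 3.58.1), filters, a stricter threshold and each library left out. Figures were made with matplotlib 3.10.9.

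Replicate numbers recur in both groups. Deviations from group means correlated at 0.459 to 0.613 between same-numbered libraries, at 0.459 to 0.574 across numbers within a batch, and at -0.632 to -0.449 between batches (10482 genes), so by their correlation and by the labelled batch the numbers pair libraries through batch. Pairs of libraries in a group differed beyond sampling noise, at a chi-square of at least 4.28 per degree of freedom.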

Additional observations from a re-analysis of the deposited data

Results flagged for a closer look

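For 3 genes the plasmid effect differed between the batches by the edgeR interaction test. The difference in log2 fold change, batch 2 minus batch 1, was 0.2956 for Klf3, 0.56 for Klf10 and 0.3711 for Klf4. For Klf3 and Klf10 the DESeq2 Wald test gave the same call, and for Klf4 it did not. The effect was in the same direction in both batches for all 3 genes. A check for a library far from the other 3 of its group, made 22 times over the 10 genes and Klf4, found none. Chance would give about 1.1 if the libraries of a group did not differ by batch. Each group joins both batches, and where these differ the check can hardly find such a library.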

How the results depend on the processing

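The count of changed KLF genes was 9 and lay between 7 and 9 under every alternative run. It was 7 with no batch term and at an adjusted p under 0.01, 8 with limma-voom, and 7 to 9 without any 1 library. All calls lost among the 10 genes were those of Klf2 and Klf9: of 160 single-gene values under alternatives, 148 kept their side of the threshold and 12 fell short of it. No called value changed direction, but Klf5, which never passed, ran from -0.10 (without control replicate 3) to 0.35. When the batch term was exchanged for a replicate block, 9 KLF genes changed, 8 higher and 1 lower, and all 9 were shared; 6284 genes changed in all, and the block ended the call for Thrb (adjusted p = 0.0589) but for no other gene named as changed. Over all genes, 6684 changed, 4116 of them with no batch term, and 5889 to 7074 without any 1 library. Scaling by abundant genes only (log2 CPM averaging 6 or more) gave 4370 higher and 1644 lower genes, against 3856 and 2828, with a shift of 0.03 in the log2 fold changes, with Klf7 lower at -0.22 and the calls for Sp8, Ctbp1 and Ep300 lost. For the other 45 listed genes tested, 668 of 717 values were unchanged in call, 32 fell short of the threshold, 17 came to pass it and none turned in direction while called. Klf5 had the lowest counts of the 10, 38 to 103 per control library.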
